A study of Mus musculus with 90 samples.

Results

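The protein genes of the cytosolic ribosome were followed through the differentiation of primary mouse myoblasts. They were found as probe sets whose chip annotation gives a single symbol of the form Rpl or Rps plus a number, or Rplp0 to Rplp2 or Rpsa, with S6 kinases, pseudogenes and mitochondrial Mrp genes left out. This gave 61 of 36701 probe sets, for 38 genes. Of these 61, 45 probe sets for 32 genes passed the filter on low signal and were tested: 14 genes of the large subunit, 16 of the small subunit and 2 of the stalk. A filter of this kind keeps a probe set where its signal is high, so the 45 are not all members. The other 16 had mean signals between 49 and 353 and were not tested. A further 51 probe sets list several symbols with a ribosomal one among them and are not named.

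All cells were primary myoblasts of skeletal muscle from MyoD-/- mice, and no other genotype was measured. Every change here is thus a change over time, and whether it depends on the genotype cannot be told. MyoD is a transcription factor that directs muscle differentiation. Cells grew on collagen in Ham's F10 rich in fetal serum, with the growth factor bFGF, until 0h, and were then fed DMEM with a low level of horse serum, in which myoblasts stop dividing and fuse into myotubes. Samples were taken at 10 times, at 0h, 6h, 12h, 18h, 24h, then at 36h and 48h and again at 3d, 4d and 7d, from 3 cultures named 1999, P6 and P10, and each RNA was read on 3 chip designs, 90 arrays in all. The labels do not say what the culture names stand for or that they are separate animals, so p-values measure the spread between these samples, which may be technical. Purity was labelled as complete, but these are bulk RNA samples, in which fewer cells of a type and less RNA per cell cannot be told apart.

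A ribosome joins a small subunit, which reads the mRNA, to a large subunit, which forms the peptide bond, and the stalk of the large subunit recruits elongation factors. Ribosomal protein mRNAs are among the most abundant of growing cells, and in mammals most begin with a 5′ terminal oligopyrimidine (TOP) tract, a cytosine followed by a run of pyrimidines, through which the mTOR pathway controls their translation. Making ribosomes takes much of the resources of a dividing cell. The assembly factors of the nucleolus, many of them targets of the transcription factor Myc, process the rRNA and join it with the ribosomal proteins.

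The sequences around the listed transcription start show this shared feature of the family and how the listed starts limit what can be read from it. RefSeq promoters (GRCm38.p6) matched 32 of the 38 genes. Each line shows 10 bases before the listed start and 20 from it, on the gene's strand. Capitals mark, for the first 5 genes, a C at the listed start with at least 4 further pyrimidines, and, for the last 2, a run of at least 5 pyrimidines that begins within 5 bases of the listed start.
*Rplp2*, chr7:141447641-141447670, plus strand: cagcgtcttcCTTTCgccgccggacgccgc
*Rps10*, chr17:27635225-27635254, minus strand: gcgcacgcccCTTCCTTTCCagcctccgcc
*Rps18*, chr17:33955646-33955675, minus strand: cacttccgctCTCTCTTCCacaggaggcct
*Rpl38*, chr11:114668570-114668599, plus strand: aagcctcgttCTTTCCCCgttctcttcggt
*Rps27*, chr3:90213629-90213658, minus strand: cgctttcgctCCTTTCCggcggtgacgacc
*Rpl13a*, chr7:45128726-45128755, minus strand: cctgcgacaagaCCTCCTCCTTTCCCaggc
*Rps26*, chr10:128626487-128626516, minus strand: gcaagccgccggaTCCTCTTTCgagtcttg

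The C with at least 4 pyrimidines stood exactly at a listed start in 8 of 32 genes (25%), in 0 of 65 mitochondrial ribosomal protein genes and in 813 of 27025 genes of the table (3.01%). A run of at least 5 pyrimidines beginning within 5 bases of a listed start was found in 13 of the 32 genes (40.6%), in 17 of 65 mitochondrial ribosomal protein genes (26.2%) and in 25.3% of all genes. A window of 10 bases gave 62.5%, 47.7% and 42.1%. Only the gene's own strand was searched, and where no match was found these letters were merely not at the listed start. Among tested genes, the 5 with the tract at the start had a median log2 change of −0.65 at 7d against 0h and 3 of them fell, and the 22 matched genes without it had −0.63 and 13 fell.

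Values are MAS5 signal, a linear intensity scaled per array, and the trimmed mean was between 1499 and 1500 on every array. Each signal had its chip's 25th percentile (119.8, 270.1 or 213.0) added before log2, and changes are differences on that scale, fitted with limma with culture as a block, and errors on them are standard errors. An adjusted p under 0.05 over all 24307 tested probe sets counts as passing. Of the 10 myotube markers 9 rose at 7d against 0h, and their summed signal was 182511 to 607416 at 7d and 4187 to 11564 at 0h. At 24h that sum ran from 7033 to 380619, so the cultures differed widely at this time. Myoblast markers rose in 3 of 9 tested genes and fell in 0 at 7d, with summed signals of 30510 to 42006 at 7d and 20881 to 29079 at 0h. Fibroblast markers rose in 3 of 7 tested genes, with summed signals of 52176 to 110719 at 7d and 22881 to 105079 at 0h, ranges that overlap. No tested marker of adipocytes (2 of 7 tested), endothelium (1 of 6), leukocytes (1 of 7) or Schwann cells (2 of 5) passed at 24h or 7d, and none was at 0 in the arrays.

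The ribosomal protein genes took up a falling share of the signal. On MG_U74Av2 the 44 member probe sets held 3.83 ± 0.133% of the summed chip signal at 7d, against 5.6 ± 0.626% at 0h (SD, n = 3). The 7d values were 3.81, 3.97 and 3.71% in cultures 1999, P6 and P10, and the 0h values were 6.2, 4.95 and 5.63%. Every 7d sample lay below every 0h sample. On MG_U74Cv2, with 16 member probe sets, the share was 1.29 ± 0.213% at 7d and 1.98 ± 0.164% at 0h, again without overlap. The P6 sample of 36h stood above the course of its culture, at 5.63% on MG_U74Av2, against 4.68% at 24h and 4.14% at 48h. The 10 myotube markers, all on MG_U74Av2, held 0.672 to 2.06% of that signal at 7d and 0.0132 to 0.0368% at 0h. Their part in the members' lower share was not tested.

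**Figure D1:**
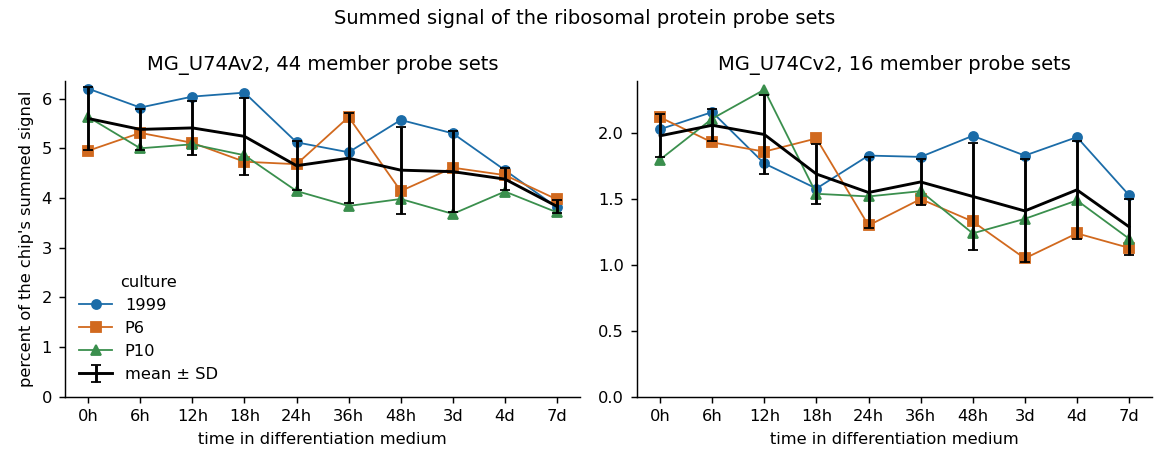
Percent of the summed signal of MG_U74Av2 (left, 44 member probe sets) and MG_U74Cv2 (right, 16) held by ribosomal protein probe sets, by time, for cultures 1999, P6 and P10 (coloured points) and as mean ± SD over the 3 (black). On MG_U74Av2 the 7d samples lie between 3.71 and 3.97% and the 0h samples between 4.95 and 6.2%.

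At 7d against 0h, 19 of the 45 probe sets fell and 0 rose, while 7.31% of all tested probe sets fell and 7.64% rose. These background shares were not matched on brightness. The median standard error was 0.31 over all tested probe sets and 0.22 over the 45. The 19 stand for 18 genes: 7 of the large subunit, 9 of the small subunit and both stalk genes. Their falls were between 1.33-fold and 2.51-fold, and all 19 were lower in each of the 3 cultures. Over the 45, 38 values were below 0 and the median was −0.58, against −0.05 over all tested probe sets. Per gene, 18 of 32 fell, with a median of −0.63. The subunits had like medians, −0.60 for the large subunit (18 probe sets), −0.57 for the small subunit (23) and −0.69 for the stalk (4). Of the 45, 28 were lower in all 3 cultures, as were 23% of all tested probe sets. Probe sets with several symbols, 1 of them ribosomal, gave 25 of 44 lower and 0 higher, with a median of −0.60.

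Among large-subunit genes, *Rpl13a* fell most. Its protein sits on the outer face of the subunit and, in human monocytes, also leaves the ribosome to silence inflammatory mRNAs. Its signals were 4476, 5269 and 4277 at 7d in 1999, P6 and P10, against 11689, 12334 and 11616 at 0h. The groups were far apart, and the change was 2.51-fold (log2 −1.33 ± 0.18, limma adjusted p = 1.41e-05). *Rpl10a*, which forms the mobile arm at the exit side of tRNA, gave 29618, 22904 and 20113 at 7d and 51194, 42789 and 42216 at 0h (−0.92 ± 0.19, adjusted p = 0.0019). A second *Rpl10a* probe set passed too, with −1.17 ± 0.22, which made this the only gene of 9 with several tested probe sets in which all passed.

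*Rpl7a* and *Rpl8* fell as well. *Rpl7a*, a rRNA-binding protein of the subunit, gave 29654, 30248 and 25932 at 7d and 52226, 50800 and 49326 at 0h (−0.83 ± 0.13, adjusted p = 8.8e-05). *Rpl8*, which lies close to the centre that forms the peptide bond, gave 52724, 45840 and 38615 at 7d and 82693, 64375 and 79752 at 0h (−0.73 ± 0.14, adjusted p = 0.00091). In both genes every 7d sample was below every 0h sample. *Rpl7*, *Rpl6* and *Rpl19*, further structural proteins of the subunit, fell by 0.68, 0.64 and 0.61 on the log2 scale.

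In the small subunit the steadiest fall was that of *Rpsa*, a structural protein also described as a laminin receptor. Its signals were 17522, 16437 and 14893 at 7d, against 34585, 29450 and 30218 at 0h, 1.92-fold lower (−0.94 ± 0.14, adjusted p = 4.86e-05). The 3 samples of 7d lay close together and well under those of 0h. *Rps3*, which lines the entry of the mRNA channel, gave 41207, 49013 and 44610 at 7d and 89842, 71843 and 90335 at 0h (−0.90 ± 0.17, adjusted p = 0.00063). *Rps26*, placed at the exit of that channel, gave 18934, 11882 and 13685 at 7d and 26847, 27405 and 29021 at 0h (−0.92 ± 0.26, adjusted p = 0.017), with the 1999 sample the highest at 7d.

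The X-linked *Rps4x* gave 58370, 52653 and 43779 at 7d and 101670, 78718 and 89511 at 0h (−0.80 ± 0.13, adjusted p = 0.00012). *Rps7*, which binds rRNA early in assembly, fell by 0.80 on the log2 scale, and *Rps10*, at the mRNA entry, by 0.78. *Rps18* and *Rps24* fell by 0.61 and 0.60. *Rps24* and *Rpl19* were both called, and *Rps19*, the gene most often mutated in human Diamond-Blackfan anaemia, was not. It gave 14088, 15643 and 11739 at 7d and 20300, 30000 and 25457 at 0h (−0.86 ± 0.38, adjusted p = 0.15), and its groups did not overlap. The smallest of the falls was that of *Rps3a1* (−0.41 ± 0.13, adjusted p = 0.042), and quantile normalization gave 0.02.

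Both stalk genes fell, *Rplp0* in 1 of its 3 tested probe sets. *Rplp0*, the base of the stalk, gave 66600, 83036 and 75287 at 7d and 141531, 110261 and 136153 at 0h (−0.78 ± 0.16, adjusted p = 0.0012). *Rplp2*, a tip protein of the stalk, gave 36436, 29797 and 40256 at 7d and 58989, 65955 and 54722 at 0h (−0.76 ± 0.24, adjusted p = 0.037). In these probe sets the groups did not overlap. A dimmer *Rplp0* probe set overlapped, with 41561, 21658 and 19986 at 7d and 46288, 50034 and 28358 at 0h. It did not pass in limma (−0.62 ± 0.38, adjusted p = 0.33). The dimmest *Rplp0* probe set gave 0.20 ± 0.46 and did not pass either. The *Rplp2* probe set carries a mark for shared or incomplete design. Its call was lost when each array was divided by its median. The other tip protein, *Rplp1*, could not be tested, nor could *Rpl3*, *Rps6*, *Rpl32* and *Rps27a*, for want of a single-symbol probe set above the filter.

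**Figure D2:**
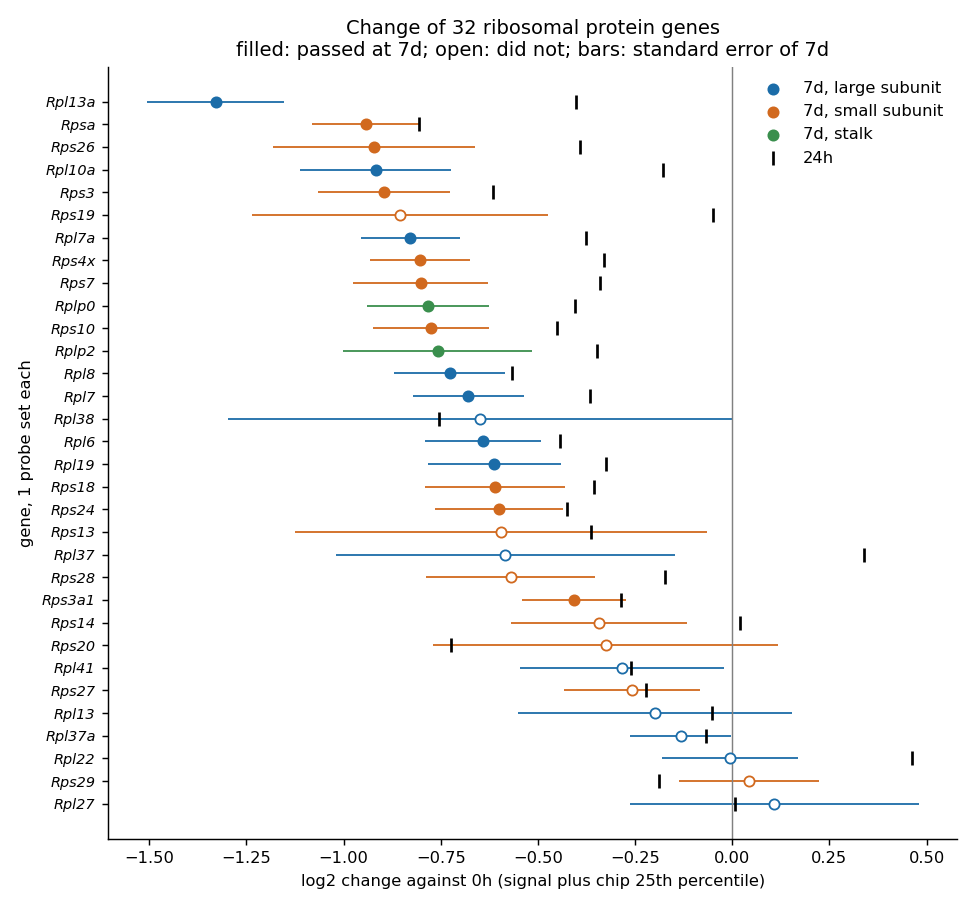
Log2 change at 7d against 0h (circles, filled where the test passed, bars for standard errors) and at 24h against 0h (black ticks) for the 32 tested ribosomal protein genes, coloured by subunit. At 7d 18 genes passed, all lower, from *Rps3a1* at −0.41 to *Rpl13a* at −1.33.

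Several bright ribosomal protein probe sets did not pass at 7d. *Rpl37a*, a small zinc-binding protein, gave 17178, 18626 and 19967 at 7d and 21426, 19750 and 19959 at 0h (−0.13 ± 0.13, adjusted p = 0.59). Its standard error was as small as that of genes which fell, and its samples overlapped. *Rps28* had a pair of bright probe sets at −0.57 ± 0.22 and −0.56 ± 0.20 that missed the threshold (adjusted p = 0.086 and 0.062). *Rpl22*, which in human cells also binds a viral RNA, gave −0.01 ± 0.18 at 7d in its brightest probe set, with 2960, 1877 and 1370 at 7d and 2662, 1818 and 1604 at 0h. At 24h against 0h that probe set gave 3444, 2522 and 2459 against 2662, 1818 and 1604, higher in every culture (0.46 ± 0.18, adjusted p = 0.12), and it passed as higher with culture and scan session both as blocks (0.52, adjusted p = 0.034).

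Brightness moved with the calls. All 19 were among the 26 probe sets with a mean log2 signal above 13, a split chosen after the values were seen and not tested. Those 26 had a median change of −0.74 with a median standard error of 0.17, and all 26 were below 0. The 19 dimmer ones had a median of −0.20 with a standard error of 0.43, and 12 of the 19 were below 0. Probe sets of 1 gene differed widely in level: those of *Rpl19* averaged 80273 and 448 over the 30 arrays, and those of *Rps20* 287275 and 370. Among 9 genes with several tested probe sets, all passed in 1, some in 4 and none in 4, and in 0 did probe sets pass in opposite directions. Ribosomal protein genes have many processed pseudogenes of near-identical sequence, so a probe set may read more than its named gene. Without probe sets that carry a suffix mark for shared or incomplete design, 14 of 27 fell.

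Over the 3 cultures together the course was gradual but not even. At 6h and 12h no member passed in limma, 0 of 45 at either time also at an unadjusted p under 0.05, while 0.457% and 1.75% of all tested probe sets fell. Falls were found for 2 members at 18h, 3 at 24h, 1 at 36h, 6 at 48h, 8 at 3d and 9 at 4d, before the 19 of 7d. Of all tested probe sets, 4.43%, 3.86%, 3.59%, 5.5%, 4.74% and 5.2% fell at these 6 times. From 18h to 36h the members' share was therefore near that of the background. The median log2 change of the 45 members was −0.04 at 6h, −0.16 at 18h, −0.29 at 24h, −0.23 at 36h, −0.33 at 48h, −0.41 at 4d and −0.58 at 7d. Single cultures were less even. At 24h, 36h and 48h the medians were −0.231, −0.298 and −0.142 in 1999 and −0.225, 0.139 and −0.335 in P6. In P10 they were −0.363, −0.557 and −0.410. These comparisons share the 0h samples.

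*Rpsa*, with *Rpl8*, was among the first members to pass. It passed at 18h (−0.52 ± 0.14, adjusted p = 0.020) and at every later time, with 20747, 16017 and 17147 at 24h in 1999, P6 and P10 (−0.81 ± 0.14, adjusted p = 0.00044). Its 24h samples were already near those of 7d. *Rpl8* passed at 18h (−0.47 ± 0.14, adjusted p = 0.039), 24h, 48h, 3d and 7d, and *Rps3* from 24h (−0.62 ± 0.17, adjusted p = 0.024) on, except at 36h. The 2 falls of 18h were lost whichever culture was left out, without the replicate block, under quantile normalization and with culture and scan session both as blocks. In that last fit 0 members fell at 18h and 2 probe sets passed as higher, 1 of *Rpl22* (0.49, adjusted p = 0.044) and a dim one of *Rpl19* (1.76, adjusted p = 0.049). *Rpl13a* took a later course, with −0.40 at 24h, −0.63 at 48h, −0.79 at 3d and −1.11 at 4d, and passed from 48h on. Between successive times, 0 of 45 members passed at any of the 8 steps (0 to 3 at an unadjusted p under 0.05), where the most calls of any step were 31 probe sets, 0.128%, at 18h against 12h. The joint test of all times was passed by 11 of 45 members, and by 8.31% of all tested probe sets. These 11 were the 2 of *Rpl10a* and those of *Rpl13a*, *Rpl7a*, *Rpl8*, *Rplp0*, *Rps10*, *Rps3*, *Rps4x*, *Rps7* and *Rpsa*.

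**Figure D3:**
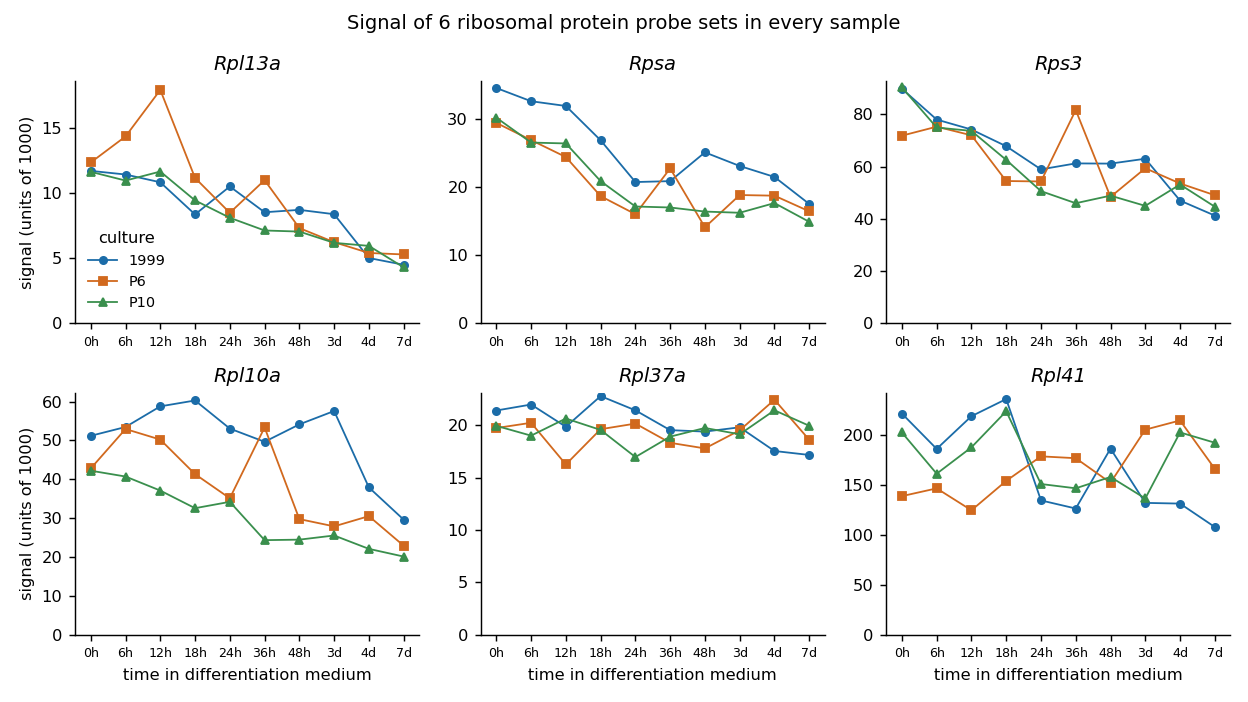
Signal (in units of 1000) of 6 ribosomal protein probe sets in each of the 30 samples, by time, for cultures 1999, P6 and P10. *Rpl13a*, *Rpsa*, *Rps3* and *Rpl10a* have every 7d sample below every 0h sample, *Rpl37a* overlaps between those times, and *Rpl41* runs differently in the 3 cultures.

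How far the fall at 7d can be separated from the scanning of the arrays is limited. No culture had its 0h and 7d arrays in 1 recorded scan session on any chip. On MG_U74Cv2 some arrays carry no scan date and were kept as a session of their own, so sessions on that chip are partly unknown. With culture and scan session both as blocks, an alternative chosen after seeing the data, the median at 7d was −0.51 and 1 of 45 members fell, *Rpsa* (−0.93, adjusted p = 0.027), while 2.25% of all tested probe sets fell. Within a session of MG_U74Av2 (30 members), the median at 48h against 0h was −0.36 in P6, with 23 of 30 lower, and that at 3d against 0h was −0.33 in 1999, with 25 of 30 lower. At 4d against 12h it was −0.33 in P10, with 25 of 30 lower, and at 7d against 4d it was −0.28 in 1999 and −0.17 in P6, with 26 and 25 of 30 lower. At 36h against 0h it was 0.22 in P6, with 9 of 30 lower. Later steps within a session went both ways. At 48h against 24h the median was 0.158 in 1999, −0.195 in P6 and −0.056 in P10, with 5, 24 and 20 of 30 lower. At 4d against 3d it was −0.036 in P6 and 0.128 in P10, with 20 and 8 of 30 lower. The medians of all tested probe sets in these pairs lay between −0.05 and 0.06.

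The size of the fall also depended on scaling. Quantile normalization between arrays gave a median of −0.31 at 7d and 11 calls, all lower, with 6.84% of all tested probe sets lower. The 10 genes behind them included *Rpl13a* (−1.34), *Rpl10a*, *Rps26*, *Rplp2* and *Rpsa*. The 19 probe sets called in the blocked fit had a median of −0.46 under it, against −0.78 without it. Without culture as a block 12 of 45 fell, with 4.62% of all tested probe sets. Left out in turn, 1999 gave 11 falls, P6 18 and P10 6, and 5 genes fell whichever culture was left out: *Rpl13a*, *Rpl7a*, *Rps10*, *Rps4x* and *Rpsa*. None of the 3 members called at 24h held in all 3 of these fits.

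The cultures differed in level. In the culture test the 10 times of a culture stood in as its repeats, and they are not separate cultures, so its p-values describe these 3 cultures only. The culture test was passed by 14 of 45 members, and by 24% of all tested probe sets, so the members' share was close to the background. All 14 were lower in P10 than in 1999, and 13 of 14 lower in P6 than in 1999. Of the 5831 culture calls over all tested probe sets, 54.9% were lower in P10 and 55.2% lower in P6 than in 1999. The smallest p was that of *Rpl22* (−0.60 in P6 and −0.80 in P10, each minus 1999, adjusted p = 5e-06), followed by *Rpl10a* (−0.41 and −0.75). Left out in turn, 1999 gave 1 call, P6 13 and P10 4. On MG_U74Av2 the 1999 arrays shared no scan session with those of P6 or P10, so on that chip their difference from the other cultures and their scan sessions cannot be told apart.

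The change from early (0h, 6h and 12h) to late times (3d, 4d and 7d) differed between cultures in 1 of 45 members, and in 1.79% of all tested probe sets. The members' share was thus close to the background. The member was *Rpl41*, which encodes a very short basic protein of the large subunit (adjusted p = 0.035). Its late signals were 132067, 131346 and 107887 at 3d, 4d and 7d in 1999, 205431, 214644 and 166205 in P6, and 136484, 202652 and 192350 in P10. Its early signals at 0h, 6h and 12h were 221546, 186153 and 218913 in 1999, 138826, 146605 and 124643 in P6, and 202600, 161291 and 187719 in P10. Late minus early was −0.76 in 1999, 0.51 in P6 and −0.07 in P10. The brighter members had medians below 0 in each culture at 7d against 0h, at −0.82 in 1999, −0.57 in P6 and −0.80 in P10.

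Genes whose products build ribosomes had medians below 0 from 6h on. Their values stand beside those of the ribosomal proteins here and were not tested against them. Of 49 tested ribosome biogenesis factors, 0 passed at 6h (24 at an unadjusted p under 0.05 in limma) and 8 fell at 12h, with medians of −0.57 and −0.61. Of the 49, 30 fell at 18h, 26 at 24h and 33 at 7d and 0 rose, with medians of −1.09, −0.91 and −0.93. Of all tested probe sets, 3.86% fell and 4.44% rose at 24h, and 7.31% fell and 7.64% rose at 7d. *Gar1*, a protein of the particles that convert uridine to pseudouridine in rRNA, gave 2058 ± 397 at 7d and 8703 ± 1792 at 0h (SD, n = 3; −2.01 ± 0.40, adjusted p = 0.0010). *Nop56*, a core protein of the particles that methylate rRNA, gave −2.20 ± 0.49 at 24h and −1.96 ± 0.49 at 7d. Fibrillarin (*Fbl*), the methyltransferase of those particles, gave −1.22 and −1.15, nucleolin (*Ncl*) −1.43 and −1.56 and nucleophosmin (*Npm1*) −1.04 and −1.75. These probe sets, which represent their genes, passed at both times. Dimmer *Ncl* probe sets gave −0.32 and −0.13 at 24h and −0.36 and −0.86 at 7d, and none of these passed. A dim *Npm1* probe set passed at 7d (−1.14) and not at 24h (−0.59). Under quantile normalization 30 of 49 fell at 7d with a median of −0.90, and with culture and scan session both as blocks 4 fell with a median of −0.65, while 21 fell at 24h.

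**Figure D4:**
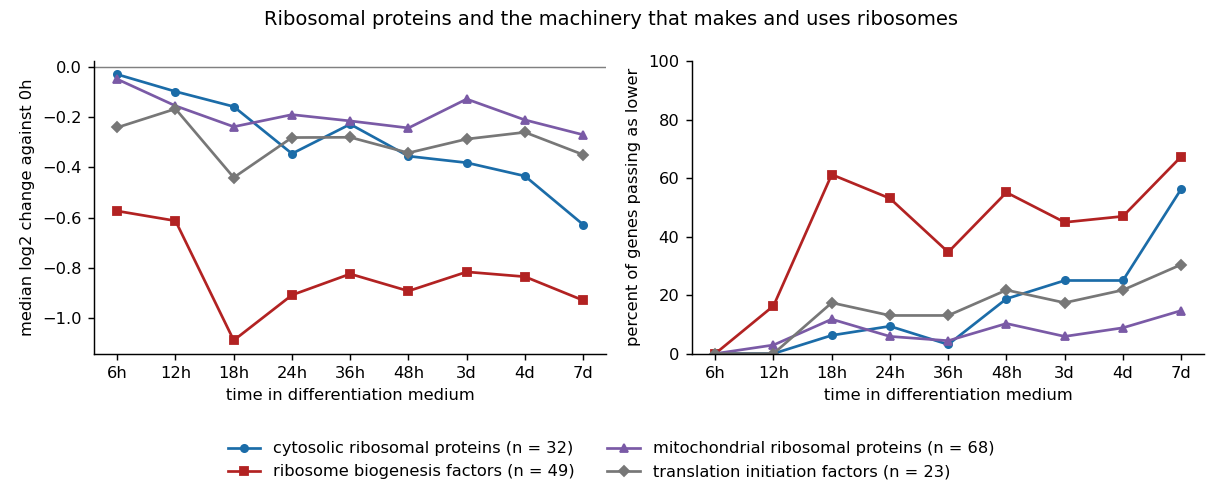
Median log2 change against 0h (left) and percent of genes passing as lower (right) by time, 1 probe set per gene, for cytosolic ribosomal proteins, ribosome biogenesis factors, mitochondrial ribosomal proteins and translation initiation factors. At 24h the medians are −0.35 for ribosomal proteins and −0.91 for biogenesis factors, and at 7d −0.63 and −0.93.

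Mitochondrial ribosomal proteins, which serve the separate ribosome of that organelle, fell in 10 of 68 tested genes and rose in 0 at 7d, with a median of −0.27. Of all tested probe sets, 7.31% fell and 7.64% rose at 7d. Without the replicate block 3 of the 68 fell at 7d, beside 4.62% of all tested probe sets. With culture and scan session both as blocks 1 of the 68 did, beside 2.25%. In both fits the share of the list was thus near the background. At 24h 4 fell and 1 rose, *Mrpl24* (0.48), where 3.86% of all tested probe sets fell and 4.44% rose. A dimmer *Mrpl24* probe set gave 0.12 and did not pass. *Mrpl12*, which also binds the mitochondrial RNA polymerase, gave −1.06 ± 0.23 at 7d (adjusted p = 0.0023) and *Mrpl20* −0.95 ± 0.14. Over the 30 arrays, with each culture's mean removed, the brighter cytosolic ribosomal protein genes on MG_U74Av2 (20 genes) had a median pairwise correlation of 0.80, the dimmer ones (4) 0.16, mitochondrial ones (57) 0.17 and biogenesis factors (41) 0.67. These correlations describe arrays that share chips and scaling.

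Other TOP mRNAs and translation factors moved unevenly. *Eef1a1* and *Eef2*, the elongation factors whose mRNAs carry a TOP tract, gave −0.34 ± 0.24 and −0.26 ± 0.16 at 7d and did not pass (adjusted p = 0.40 and 0.34). *Eef1a2*, the elongation factor form of adult muscle, gave 1326 ± 534 at 7d and 643 ± 117 at 0h and rose 1.81-fold (adjusted p = 0.012). *Eef1d*, which reloads elongation factors with GTP, fell by 0.62 on the log2 scale. Of 6 tested elongation factors 1 rose and 1 fell at 7d, where 7.64% of all tested probe sets rose and 7.31% fell. Without the replicate block the fall was lost, and with culture and scan session both as blocks neither passed.

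Among the other TOP transcripts 2 of 4 fell at 7d (1 with culture and scan session both as blocks), *Npm1* and the histone chaperone *Nap1l1* (−1.07 ± 0.21), and *Tpt1* gave −0.45 ± 0.20 and did not pass (adjusted p = 0.16). Of 23 tested initiation factors 7 fell and 1 rose at 7d, where 7.31% of all tested probe sets fell and 7.64% rose. Without the replicate block 5 fell and 0 rose, and with culture and scan session both as blocks 1 fell and 1 rose. Of all tested probe sets, 4.62% and 2.25% fell in these fits. The poly(A)-binding protein *Pabpc1*, a TOP mRNA as well, gave 17946 ± 9198 at 7d and 69380 ± 19751 at 0h, 4.1-fold lower (adjusted p = 3.97e-06). A dim second probe set of *Pabpc1* gave −1.08 on the log2 scale without passing. The helicase *Eif4a1* fell by 1.12 on the log2 scale and its paralog *Eif4a2* rose by 0.94. Among paralogs of ribosomal proteins, 1 of 4 tested fell, *Rpl7l1* (−0.73; 0 of 4 without the replicate block or with both blocks), and the muscle form *Rpl3l* gave −0.21 ± 0.52 and *Rps27l* −0.13 ± 0.32 without passing. *Rpl22l1* was not tested.

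Of the growth signalling genes upstream of ribosome synthesis, 3 of 20 tested rose and 2 fell at 7d, where 7.64% of all tested probe sets rose and 7.31% fell. Without the replicate block 2 rose and 1 fell, and with culture and scan session both as blocks 1 rose and 0 fell. *Myc* gave 279 ± 152 at 7d and 1853 ± 418 at 0h, 5.14-fold lower (−2.36 ± 0.64, adjusted p = 0.013), and at 24h it gave 453 ± 206 (−1.82 ± 0.64, adjusted p = 0.087). *Mxd4*, a protein that competes with Myc for its partner, rose by 1.03 at 7d and 1.45 at 24h. *Sesn1*, an inhibitor of the mTOR pathway, rose 3.02-fold at 7d (adjusted p = 0.00011). *Eif4ebp1*, a repressor of cap binding that mTOR switches off, fell by 1.17 on the log2 scale, and *Rps6kb2*, an S6 kinase, rose by 1.31. *Larp1*, which binds TOP tracts and represses these mRNAs, fell at 24h (−0.71 ± 0.18, adjusted p = 0.015) and gave −0.43 ± 0.18 at 7d without passing. Its other probe sets were divided at 24h. A dimmer one passed (−0.818), another dimmer one (−0.525) and the brightest (−0.499) did not, and none passed at 7d. In the RNA polymerase I machinery, which makes the rRNA, 1 of 12 tested genes fell at 24h, *Polr1a* (−0.90), and 2 at 7d, *Taf1d* (−1.18) and *Polr1e* (−0.64). Of all tested probe sets, 3.86% fell at 24h. Second probe sets of *Taf1d* (−1.25) and *Polr1e* (−0.58) did not pass at 7d. Without the replicate block 0 fell at 24h and 1 at 7d, and with culture and scan session both as blocks 1 fell at 24h and 0 at 7d. Of all tested probe sets, 4.62% and 2.25% fell at 7d in these fits.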

How the data were processed

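The authors deposited MAS5 intensity per probe set (per the submitters' processing notes, with no version given) for 30 arrays on each of MG_U74Av2, MG_U74Bv2 and MG_U74Cv2, and biotinylated cRNA was made by the Affymetrix protocol, per the labels' protocols. Detection calls were not used. Probe sets were named by GEO's platform annotation, with symbols updated through RefSeq (GRCm38.p6). Leaving out 66 controls a chip, those with at least 3 of 30 arrays above the chip median were tested (7423, 8254 and 8630 probe sets, 12373 named genes). Differences of log2 intensity, as deposited plus the 25th percentile of the chip, were tested in limma 3.58.1 (R 4.3.3), two-sided, with Benjamini-Hochberg adjustment over the 3 chips. A gene was represented by 1 tested probe set, chosen by chip (MG_U74Av2, then MG_U74Bv2, then MG_U74Cv2), then unmarked before marked, then by brightness. Some genes, among them *Rpl7*, *Rps24*, *Rps26*, *Rplp2* and *Rps13*, are thus represented by a marked probe set.

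Titles give the same 3 culture names at all times, which pairs the samples, so culture was a block. Deviations from the time means correlated with a median of 0.44, 0.232 and 0.088 on the 3 chips within cultures and −0.199, −0.085 and −0.036 between cultures. In 84 of 90 arrays the instrument record names the culture and time of the title, and 0 pairs of arrays held identical values. Scan sessions were taken from the dates in the instrument records, and the MG_U74Cv2 arrays without a date were kept as a session of their own. Members and lists were chosen with earlier results of these data known. Named were 12 fixed members, the 5 lowest and highest passing members at 24h and 7d (2 at other times), the 10 with the smallest p in the joint, culture and interaction tests, and up to 2 passing genes a list in each direction, of which those that bear on a result are given. The fit was also run on simulated signals with known changes and independent noise. These held no culture or scan session effect, so that run cannot speak to the pairing or to the sessions. Only 3 arrays per time limit the precision.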

Additional observations from a re-analysis of the deposited data

Results flagged for a closer look

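*Rpl41* is the single member whose change from early to late times differed between the cultures (adjusted p = 0.0352 for the interaction in limma). Of all tested probe sets 1.79% passed this test, so a single member is close to the background share. The late minus early values of *Rpl41* were −0.76 in 1999, 0.51 in P6 and −0.07 in P10 on the log2 scale. Its probe set carries a mark for sequence shared with other transcripts. The early and late times of a culture stood in as repeats, and they are not separate cultures. No member passed this test under quantile normalization, without 1999, without P6 or when P6 lacked its 6h and 12h arrays. The fit without marked probe sets leaves out that of *Rpl41* itself, so it could not call this gene.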

How the results depend on the processing

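Counts here are of member probe sets passing against 0h, all of them lower except where a rise is named. At 7d, 4.62% of all tested probe sets fell without the replicate block and 6.84% under quantile normalization. With culture and scan session both as blocks 2.25% fell. The other counts have no such share beside them here and cannot be read against the background. Without the replicate block, 0 passed at 18h, 0 at 36h, 3 at 48h, 3 at 3d, 4 at 4d and 12 at 7d, and 5 in the joint test of time. With scan session in place of culture the counts were 2 at 36h, 3 at 3d, 1 at 4d and 8 at 7d, and 1 in the joint test. Of these, 1 at 36h and 1 at 3d rose, and at 18h 1 fell and 1 rose. With culture and scan session both as blocks, added after seeing the data, they were 2, 3, 1 and 1 at these times, and 1 in the joint test. Of these, 1 at 36h and 1 at 3d rose, and at 18h 0 fell and 2 rose. In both fits 1 member also rose at 24h and 1 at 48h. The rises were those of *Rpl22* at each of these times, except that the single rise at 18h in place of culture and 1 of the 2 with both were of a dim *Rpl19* probe set. Quantile normalization gave 0 at 18h, 1 at 24h, 3 at 48h, 2 at 3d, 5 at 4d, 11 at 7d, 6 in the joint test and 0 in the test of late change between cultures, with medians of −0.12 at 24h and −0.31 at 7d. It turned *Rps3a1* at 7d to 0.021 (adjusted p = 0.95). Adding the chip median gave 6 at 24h and 2 at 36h. No filter gave 1 at 12h, 1 at 18h, 2 at 36h and a median of −0.34 at 7d, over more members. The 6 arrays of each pair of times alone gave 1 at 18h, which was a rise of that *Rpl19* probe set, 0 from 24h to 4d and 4 at 7d. Leaving out the 1999 arrays of 36h and 48h gave 10 at 48h, 9 lower and 1 higher. Leaving out the P6 arrays of 6h and 12h, or the marked probe sets, gave 0 in the test of late change. The fit without marked probe sets does not hold the *Rpl41* probe set. With 1 culture left out, counts ran from 0 to 0 at 18h, 0 to 1 at 24h, 0 to 3 at 36h and 48h, 0 to 4 at 3d, 1 to 5 at 4d, 6 to 18 at 7d, 1 to 3 in the joint test, 1 to 13 between cultures and 0 to 1 in the test of late change, and the median at 7d ran from −0.59 to −0.45. The call at 24h rested on each culture, with 1 left without 1999, 1 without P6 and 0 without P10. The causes were not tested. The steps between successive times and 6h kept a count of 0 in all 15 alternatives that could be run. Named members called at 24h or 7d gave 282 comparisons with an alternative, in which the call was kept in 193, lost in 88 and turned in 1. Those not called gave 424, in which 5 gained a call. Scan session could not replace culture in the tests of culture and of late change, which need culture as a term. Dim members, with a median standard error of 0.43, allow only large changes to pass.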
